A study of Mus musculus with 45 samples.

Results

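The apical polarity and lumen genes are 10 genes that epithelial cells use to build and mark the surface facing a lumen: Podxl, Prom1, Ezr, Crb2, Crb3, Patj, Pard3, Pard6b, Prkci and Prkcz. They were found by matching the Ensembl identifiers of the count table to these symbols, and all 10 of them were present among its 54532 genes. The table holds RNAseq counts of neural tube organoids grown clonally in Matrigel from R1 cells, a wild-type mouse embryonic stem cell line, in N2B27 medium. Organoids were collected at day 2, before any treatment, and at 7 times after day 2, of which the earliest were 8 h and 18 h and the others ran in equal steps from 30 h to 78 h, either untreated or with 250 nM all-trans retinoic acid (RA) added at day 2. Each of the 15 conditions had 3 biological replicates, which gave 3 day 2, 21 untreated and 21 RA-treated libraries. The treatment protocol in the sample labels gives the RA dose in µM with the same figure, and the nM of the series description and the methods is used here. The same protocol lists other late collection times and no 8 h, and the times of the sample titles are used here. One cell line was used, so that the replicates are separate cultures of R1 and not separate animals. RNA was prepared in bulk from organoids released from the Matrigel, so that the levels are averages over all their cells. In such samples, fewer cells of a type and less RNA per cell cannot be told apart.

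An epithelial cell separates an apical membrane, which faces the lumen, from a basolateral membrane. It does so by apical and basolateral protein complexes that exclude each other, and the Par and Crumbs complexes are apical ones. The Par complex consists of the scaffolds Pard3 and Pard6 and an atypical protein kinase C, encoded by Prkci or Prkcz. The Crumbs complex consists of a transmembrane Crumbs protein, here Crb2 or Crb3, and cytoplasmic partners such as the scaffold Patj. At the membrane itself sit the sialomucin podocalyxin (Podxl), whose negatively charged sugars keep facing membranes apart, the pentaspan glycoprotein prominin-1 (Prom1), found on apical protrusions of neuroepithelial cells, and ezrin (Ezr), which ties membrane proteins such as podocalyxin to the actin cortex. In the neural tube this apical surface lines the central canal and the ventricles.

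The genes lie on 7 chromosomes of the GRCm38 build in GENCODE release M21. Podxl (ENSMUSG00000025608) lies on the minus strand at chr6:31519488-31563981, Prom1 (ENSMUSG00000029086) on the minus strand at chr5:43993620-44102032 and Ezr (ENSMUSG00000052397) on the minus strand at chr17:6738041-6782784. Crb2 (ENSMUSG00000035403) lies on the plus strand at chr2:37776249-37799103, Crb3 (ENSMUSG00000044279) on the plus strand at chr17:57059105-57065918 and Patj (ENSMUSG00000061859) on the plus strand at chr4:98395785-98719603. Pard3 (ENSMUSG00000025812) lies on the plus strand at chr8:127063893-127612286 and Pard6b (ENSMUSG00000044641) on the plus strand at chr2:168081004-168101203. Prkci (ENSMUSG00000037643) lies on the plus strand at chr3:30995747-31052959 and Prkcz (ENSMUSG00000029053) on the minus strand at chr4:155260129-155361361. Exons of 4 members overlap exons of a gene on the other strand, and the sources used here do not state whether the counting used strand. Crb2 shares 113 exon bases with Dennd1a, 0.736% of the exon bases of that gene. At day 2 and 8 h, where Crb2 was lowest, Crb2 had 30 to 73 counts a library and Dennd1a 223 to 517, so that reads from the shared bases could weigh on these low values. From 18 h to 78 h Crb2 had 85 to 2985 counts and Dennd1a 312 to 915. Prom1 shares 424 bases with Gm16401 (at most 40 counts), Crb3 shares 14 with Dennd1c, and Ezr shares 4 with Sytl3.

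RefSeq promoters of GRCm38.p6, from 250 bases before to 50 bases after a start, were given for 9 of the 10 members in 16 windows. Podxl was the member without one. Windows of Crb2, the member with the largest rise, of Prkcz, which was raised by RA at the late times, and of Prom1, which was lowered, are printed here because RA receptors act on DNA. Prkcz and Prom1 have further windows that are not printed. Capitals mark the GC box GGGCGG on either strand and, in Prkcz, also the half-site variant AGTTCA.
Crb2, plus strand, chr2:37775999-37776298: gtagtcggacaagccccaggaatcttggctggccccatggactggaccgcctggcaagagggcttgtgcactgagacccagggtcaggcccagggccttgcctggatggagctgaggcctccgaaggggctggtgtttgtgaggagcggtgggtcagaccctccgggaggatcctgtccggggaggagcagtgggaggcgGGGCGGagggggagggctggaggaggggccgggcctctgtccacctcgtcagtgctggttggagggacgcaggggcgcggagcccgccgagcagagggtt
Prkcz, minus strand, chr4:155361379-155361678: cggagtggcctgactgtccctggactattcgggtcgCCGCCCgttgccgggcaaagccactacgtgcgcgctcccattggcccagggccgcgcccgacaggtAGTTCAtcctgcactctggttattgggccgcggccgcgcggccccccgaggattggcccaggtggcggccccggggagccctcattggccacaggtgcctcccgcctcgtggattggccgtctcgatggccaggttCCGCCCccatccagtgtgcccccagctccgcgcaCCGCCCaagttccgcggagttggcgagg
Prom1, minus strand, chr5:44101687-44101986: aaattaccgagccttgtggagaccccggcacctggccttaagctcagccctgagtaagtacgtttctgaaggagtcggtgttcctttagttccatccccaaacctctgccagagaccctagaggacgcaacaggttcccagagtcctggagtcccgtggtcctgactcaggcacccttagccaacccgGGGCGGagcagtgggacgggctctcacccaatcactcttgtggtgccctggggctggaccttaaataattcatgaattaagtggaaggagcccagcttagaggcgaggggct
The form AGGTCA of the RA receptor half-site, searched on both strands, occurred in 0 of the 16 member windows and in 16.3% of all 32851 promoter windows. Its variant AGTTCA occurred in a window of Prkcz and in a window of Patj, against 14% of all windows. The GC box occurred in 11 of the 16 member windows, at least one for each of the 9 members, against 35.7% of all windows. Other forms of the half-site were not searched. The letters GGGTCA, which differ from AGGTCA in the first base, occur in the printed Crb2 window and were not counted. These matches describe the letters of these windows only, and sites outside them were not searched.

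Library totals lay between 17298632 and 39688686 counts, with a median of 25923745, and the lowest count of any member in any library was 30, for Crb2. The sum of 5 neural progenitor markers (Sox1, Sox2, Sox3, Pax6 and Nes) was 466 to 484 CPM at day 2, most of it from Sox2. Sox2 was at 406 CPM (SD 9.39, n = 3) at day 2 and 220 CPM (SD 7.41) and 235 CPM (SD 19.4) at 78 h without and with RA. Sox1 was at 2.10 CPM (SD 0.394) at day 2 and at 169 CPM (SD 17.3) and 95.4 CPM (SD 1.39) at 78 h. The sum of 4 pluripotency markers was 1430 to 1700 CPM at day 2. Sox2 alone therefore does not mark the day 2 cells as neural progenitors. CPM values are counts scaled to library size, with TMM factors computed over all 45 libraries. The libraries were not uniform in the mean of 4 genes of the Y chromosome, which lay between 1.22 and 3.65 CPM in 6 libraries and between 22.9 and 89.5 CPM in the other 39. The 6 comprised every untreated 30 h library together with RA 8 h replicate 3 and RA 30 h replicates 1 and 3, so that RA 30 h replicate 2, at 29.1 CPM, stood apart from the other RA libraries of its time. The log2 fold changes of the members at 8 h and 30 h are therefore given both with all libraries and without RA 8 h replicate 3 or RA 30 h replicate 2. The part of this difference in the results was not tested.

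To ask how RA changed the apical genes, RA-treated and untreated organoids of the same time point were compared, 3 libraries against 3. A gene was called when its adjusted p, from edgeR with Benjamini-Hochberg adjustment over all genes tested, was under 0.01 and its log2 fold change above 1 or below -1. All 10 members passed the filter on low counts at each of the 7 times, which gives 70 pairs of a gene and a time. Crb2 was called upregulated at 18, 30, 42 and 54 h, and Podxl at 18 h and Prom1 at 30 h were called downregulated. These are 4 upward and 2 downward calls of 70, while 6.44% of all tested pairs of a gene and a time were called up and 3.62% down. Without a minimum fold, at the same adjusted p, 14 pairs rose and 19 fell, against 15.9% and 13.2% of all tested pairs. At an adjusted p under 0.05 with no minimum fold, 16 rose and 25 fell, against 22.2% and 19.6%. The RA-treated and untreated libraries did not overlap in 50 pairs, with RA above in 23 and below in 27, against 27.8% and 26.1% of all tested pairs.

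**Figure D1:**
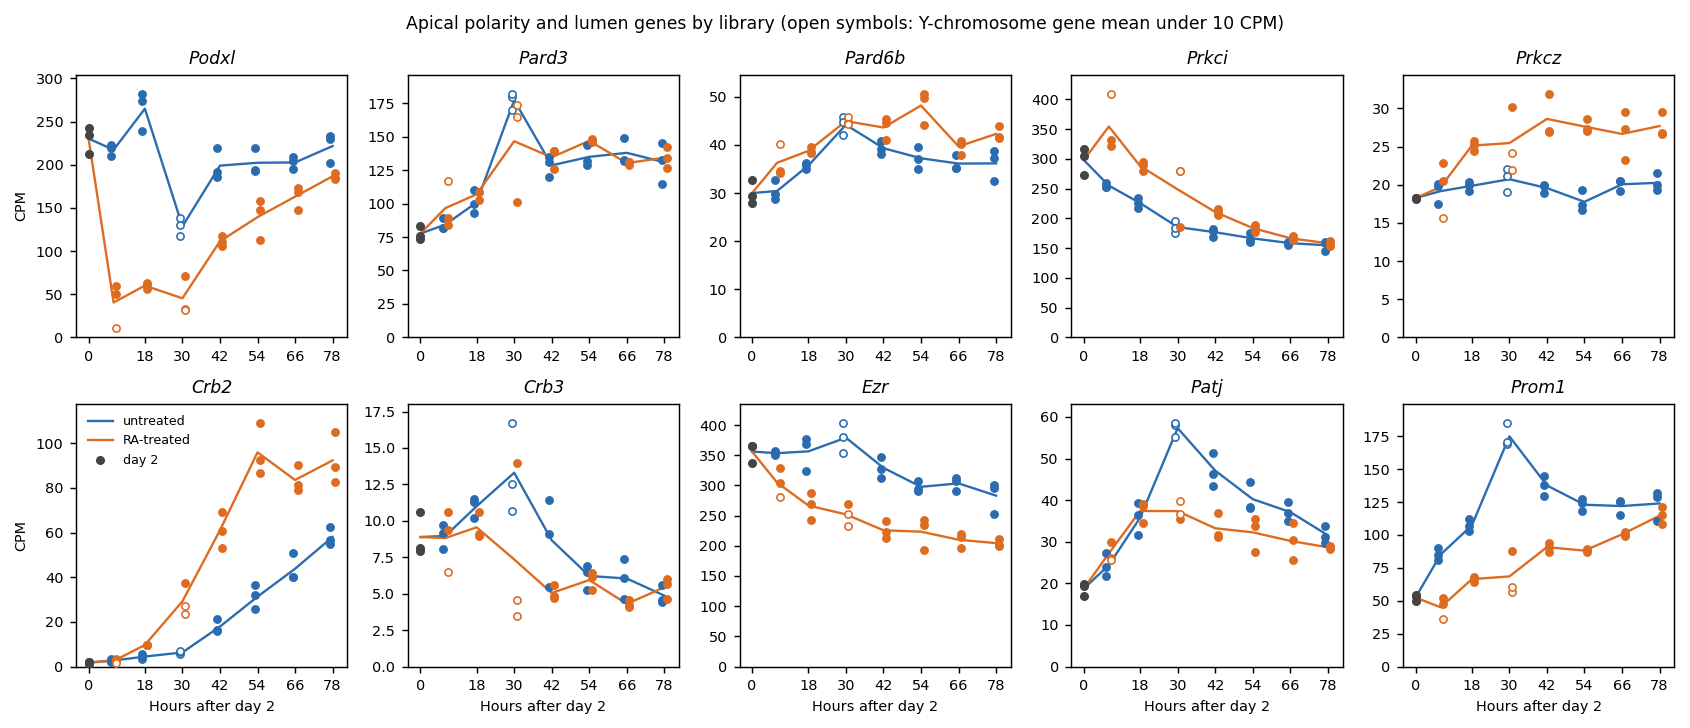
CPM of the 10 genes (y axes, starting at 0) in each of the 45 libraries by hours after day 2 (x axes); lines join condition means, blue for untreated, orange for RA-treated, grey points for day 2, and open symbols mark the 6 libraries with a Y-chromosome gene mean of 1.22 to 3.65 CPM. From 8 to 30 h Podxl lay between 11.4 and 71.4 CPM in the RA-treated libraries and between 118 and 282 CPM in the untreated ones. Crb2 climbed from under 2.5 CPM at day 2 in both arms and was higher with RA from 18 h.

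By time, the number of members called was 2 each at 18 h and 30 h, 1 each at 42 h and 54 h, and 0 at the first and the last 2 times. In the order of the 7 times, the share of all tested genes called was 1.8%, 10.9%, 8.45%, 12.5%, 13.2%, 11.5% and 11.7%. With no minimum fold, the members past an adjusted p of 0.01 numbered 1, 6, 4, 7, 6, 5 and 4 at the 7 times, against 3.14%, 42.6%, 14.1%, 37.5%, 38.7%, 33.3% and 33.4% of all tested genes. The median log2 fold change of the 10 members lay between -0.43 at 30 h and 0.08 at 18 h, and that of all tested genes between -0.01 and 0.04. Without RA 8 h replicate 3, 1 member was called at 8 h, downward, against 5.1% of genes. Without RA 30 h replicate 2, 4 members were called at 30 h, 1 up and 3 down, against 13.5% of genes.

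Podxl, the apical sialomucin, was lower in RA-treated organoids at all 7 times, and no RA-treated library reached any untreated library of its time. At day 2 it was at 235, 243 and 213 CPM. At 8 h the untreated libraries were at 219, 223 and 210 CPM and the RA-treated ones at 59.0, 50.7 and 11.4 CPM. The lowest of these, replicate 3, is the library with few Y-chromosome counts, and all 3 lay far below the untreated range. At 18 h the values were 282, 239 and 274 CPM without RA and 56.2, 63.2 and 60.5 CPM with it, a ratio of means of 4.42 and a log2 fold change of -2.13 (SE 0.065, adjusted p = 4.1e-11). At 30 h they were 130, 138 and 118 CPM without RA and 33.2, 71.4 and 31.2 CPM with it. Here the untreated level itself was below that of the neighbouring times, and all 3 of these untreated libraries had few Y-chromosome counts.

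The difference in Podxl was not called at 8 h (log2 fold change -2.42, SE 0.496, adjusted p = 0.025) or at 30 h (-1.50, SE 0.320, adjusted p = 0.012). Without RA 8 h replicate 3 it was called at 8 h (-2.0, SE 0.078, adjusted p = 1e-11), and without RA 30 h replicate 2 it was called at 30 h (-2.02, SE 0.080, adjusted p = 1.8e-13). Podxl then recovered under RA. The RA-treated libraries were at 106, 118 and 110 CPM at 42 h, at 113, 147 and 158 CPM at 54 h and at 148, 173 and 168 CPM at 66 h. The untreated libraries stayed at 186 to 220 CPM over those times. At 78 h the level was 202, 230 and 233 CPM without RA and 184, 191 and 185 CPM with it, a difference of -0.23 on the log2 scale (SE 0.055, adjusted p = 0.0051). The log2 fold change was -0.85, -0.55 and -0.30 at 42, 54 and 66 h, each with an adjusted p under 0.01 and none past a log2 fold change of -1. The RA effect at 78 h differed from that at 18 h by 1.88 (SE 0.091, adjusted p = 1.3e-10 for the interaction).

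Prom1, the prominin of apical protrusions, was also lower with RA, and its groups did not overlap at 6 of the 7 times. In untreated organoids it rose from 53.5, 54.2 and 49.7 CPM at day 2 to 112, 103 and 107 CPM at 18 h and to 185, 169 and 171 CPM at 30 h, the condition with its highest mean. With RA it was at 47.3, 51.8 and 36.0 CPM at 8 h. At 18 h it was at 67.4, 64.0 and 67.9 CPM with RA, above every day 2 library. The untreated libraries had already reached 80.8 to 89.8 CPM at 8 h. The log2 fold change was -0.91 (SE 0.128, adjusted p = 0.006) at 8 h and -0.68 (SE 0.051, adjusted p = 2.5e-07) at 18 h, short of the minimum fold. Without RA 8 h replicate 2 the 8 h value was -1.02, which is past it, and without RA 8 h replicate 3 it was -0.79 (SE 0.075, adjusted p = 5.6e-07).

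At 30 h the RA-treated libraries were at 56.7, 88.2 and 60.6 CPM of Prom1 and the difference was called (-1.35, SE 0.181, adjusted p = 0.0018). The call did not survive the removal of any single untreated library of 30 h, with adjusted p-values of 0.01 to 0.012, and it held with -1.60 (SE 0.070, adjusted p = 7.9e-13) without RA 30 h replicate 2. From 42 h on the arms approached each other. RA-treated organoids were at 87.1 to 94.1 CPM at 42 h, 86.7 to 89.0 CPM at 54 h and 99.5 to 102 CPM at 66 h, and untreated ones at 130 to 145, 118 to 127 and 115 to 126 CPM. By 78 h the groups overlapped, at 111, 129 and 132 CPM without RA and 108, 115 and 121 CPM with it (log2 fold change -0.10, SE 0.065, adjusted p = 0.22). The RA effect on Prom1 at 78 h differed from that at 18 h by 0.55 (SE 0.085, adjusted p = 7.5e-05).

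Ezr, the membrane-to-actin linker, had the highest level per kilobase of exon of the 10 members, at 108 CPM per kb at day 2. Its RA-treated libraries lay below the untreated ones at each of the 7 times without overlap, and the difference passed an adjusted p of 0.01 from 18 h on. At 8 h the libraries were at 350, 357 and 353 CPM without RA and 329, 304 and 281 CPM with it (log2 fold change -0.21, SE 0.073, adjusted p = 0.11), and without RA 8 h replicate 3 the difference was -0.17 (SE 0.064, adjusted p = 0.055). At 18 h they were at 369, 323 and 377 CPM against 243, 287 and 270 CPM (-0.41, SE 0.066, adjusted p = 2e-04). From 30 h to 78 h the log2 fold change stayed between -0.59 and -0.43, with adjusted p-values between 2.8e-05 and 0.005. Without RA 30 h replicate 2 the 30 h value was -0.66 (SE 0.069, adjusted p = 1.9e-07). The last libraries, at 78 h, were at 253, 295 and 301 CPM without RA and 212, 200 and 201 CPM with it. The RA effect on Ezr at 78 h minus that at 18 h was -0.07 (SE 0.097, adjusted p = 0.62).

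Markers of other cell states also differed between the arms, some in the direction of these 3 genes and some in the other. The summed level of 6 simple epithelium markers (Krt7, Krt8, Krt18, Krt19, Epcam and Cdh1) was 934 to 1130 CPM without RA and 591 to 704 CPM with RA at 18 h, with 2 of the 6 called up (Krt7, Krt8) and Epcam and Cdh1 lower by -0.55 and -0.85 on the log2 scale. The summed level of 4 pluripotency markers (Pou5f1, Nanog, Fgf5 and Utf1) was 1210 to 1270 CPM without RA and 507 to 565 CPM with RA at 18 h, where 3 of the 4 were called down. At 78 h the pluripotency sum was 409 to 503 CPM against 167 to 304 CPM. The simple epithelium sum was then 368 to 444 CPM without RA and 828 to 871 CPM with RA, with the 4 keratins called up. Over the 7 times 5 endoderm markers, summed, were at 0.715 to 3.95 CPM in untreated libraries, with 3 of the 5 under 1 CPM in each of them. In RA-treated ones they were at 4.48 to 29.4 CPM. At 78 h the sums with RA were 16.3 to 19.5 CPM for mesoderm, 22.8 to 28.2 for neural crest and 47.6 to 60.6 for endothelial markers. Without RA these were 4.39 to 5.49, 12.2 to 13.6 and 15.8 to 20.3 CPM. Of the mesoderm markers 1 was called up there and 1 down. At 18 h the mesoderm sum was lower with RA, at 1.44 to 2.26 against 2.39 to 4.06 CPM. The summed level of 4 neuron markers was also lower with RA at the middle times, at 172 to 176 CPM without and 128 to 136 CPM with RA at 18 h, 214 to 249 against 87.0 to 98.2 CPM at 42 h and 242 to 280 against 86.8 to 94.3 CPM at 54 h. At 66 h they were 260 to 281 against 173 to 194 CPM. At 8 h and 30 h these sums overlapped, and at 78 h they were 248 to 264 CPM without RA and 261 to 280 CPM with it. The 4 neuron markers did not move together. At 54 h 0 of them were called up and 1 down, with a median log2 fold change of -0.109. At 66 h 1 was called up and 1 down (median 0.522), and at 78 h 2 up and 1 down (median 1.01). The part of these cell states in the results for Podxl, Prom1, Ezr and the other members was not tested.

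**Figure D2:**
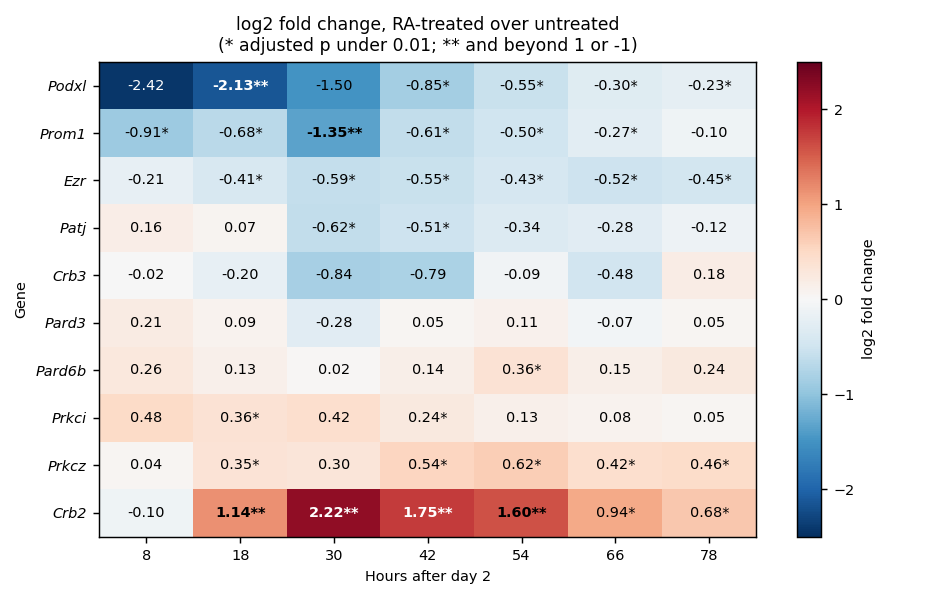
Heat map of the log2 fold change of RA-treated over untreated organoids for the 10 genes (rows) at 7 times (columns, hours after day 2); 1 star marks an adjusted p under 0.01 and 2 stars and bold a change past 1 or -1 as well. The values of Podxl, Prom1 and Ezr are below 0 at all 7 times, but those of Podxl at 8 h (-2.42, adjusted p = 0.025) and 30 h, Ezr at 8 h and Prom1 at 78 h carry no star, and Crb2 is higher from 18 h.

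Crb2, the large Crumbs protein of the neural tube, changed most of the 10. Its condition means ran from 1.79 CPM (SD 0.504, n = 3) at day 2 to 96.0 CPM (SD 11.8) in RA-treated organoids at 54 h, a range of 53.6-fold, whereas no other member exceeded 6.56-fold. At 8 h the arms overlapped, at 1.92, 2.98 and 3.18 CPM without RA and 2.52, 3.31 and 1.66 CPM with it, and the log2 fold change was -0.10 (SE 0.308, adjusted p = 0.86) and 0.09 (SE 0.234, adjusted p = 0.8) without RA 8 h replicate 3. At 18 h the untreated libraries were at 5.73, 3.51 and 4.16 CPM and the RA-treated ones at 9.55, 9.73 and 9.61 CPM (log2 fold change 1.14, SE 0.144, adjusted p = 2.8e-05). The 3 RA-treated libraries were nearly identical, and all lay above the untreated ones. At 30 h the untreated libraries were at 5.49, 6.59 and 6.84 CPM and the RA-treated ones at 27, 37.3 and 23.4 CPM, the largest difference of the time course (2.22, SE 0.216, adjusted p = 0.00046). Without RA 30 h replicate 2 it was 1.99 (SE 0.122, adjusted p = 1.2e-10).

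Untreated organoids also raised Crb2, to lower levels at the same times. Against day 2 it was called up at 18 h in both arms and at 8 h in neither. The change at 18 h was 1.31 (SE 0.234, adjusted p = 0.00049) without RA and 2.415 (SE 0.172, adjusted p = 2.5e-09) with it. Untreated organoids were at 15.8, 21.4 and 16.5 CPM at 42 h and at 25.6, 32.0 and 36.3 CPM at 54 h, while RA-treated ones were at 69.3, 60.8 and 53.0 CPM and at 109, 92.3 and 86.5 CPM. The log2 fold changes were 1.75 (SE 0.120, adjusted p = 8.8e-07) and 1.6 (SE 0.121, adjusted p = 1.6e-06). At 66 h the difference was 0.94 (SE 0.089, adjusted p = 1.6e-05), just short of the minimum fold, and without untreated 66 h replicate 3 it was 1.07. By 78 h the libraries were at 56.6, 54.9 and 62.6 CPM without RA and 82.5, 89.5 and 105 CPM with it (0.68, SE 0.085, adjusted p = 6.4e-05). Untreated organoids at 78 h were thus near the level that RA-treated organoids had at 42 h, and still below all RA-treated libraries of their own time. The summed level of 5 neural progenitor markers at 30 h was 443 to 468 CPM without RA and 582 to 834 CPM with it. Sox1 (log2 fold change 3.24) and Pax6 (3.23) were called up there. Sox2 (0.15), Sox3 (0.27) and Nes (-0.285) did not pass an adjusted p of 0.01. The part of these markers in the result for Crb2 was not tested.

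Crb3, the short Crumbs protein of simple epithelia, did not pass an adjusted p of 0.01 between the arms at any time. It was at 8.12, 7.94 and 10.6 CPM at day 2. At 8 h the log2 fold change was -0.02 (SE 0.194, adjusted p = 0.97), and 0.15 (SE 0.126, adjusted p = 0.4) without RA 8 h replicate 3. At 30 h the untreated libraries were at 10.7, 16.7 and 12.5 CPM and the RA-treated ones at 4.57, 14 and 3.49 CPM (log2 fold change -0.84, SE 0.510, adjusted p = 0.26). Replicate 2 lay within the untreated range and the other RA-treated libraries far below it. Without this replicate the difference was -1.73 (SE 0.182, adjusted p = 2.1e-07), past both thresholds. At 42 h the untreated libraries were at 11.4, 5.48 and 9.12 CPM and the RA-treated ones at 4.85, 5.61 and 4.68 CPM (-0.79, SE 0.231, adjusted p = 0.015), and without untreated 42 h replicate 2 the value was -1.04 and called. At 78 h the libraries were at 5.61, 4.58 and 4.41 CPM without RA and 6.0, 4.64 and 5.67 CPM with it, and overlapped.

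The balance of the Crumbs genes moved toward Crb2 in both arms. In untreated organoids Crb3 itself rose from day 2 to 30 h, by 0.57 (SE 0.152, adjusted p = 0.0027). Per kilobase of exon, Crb2 made up 4.67% (SD 1.77, n = 3) of the sum of Crb2 and Crb3 at day 2, so that Crb3 was 23.3 times as abundant. At 30 h the share of Crb2 was 10.2% (SD 1.53) without RA and 52.5% (SD 12.3) with RA, with RA-treated libraries between 38.4% and 61.0% and untreated ones between 8.43% and 11.3%. RA replicate 2 was the one at 38.4%, and without it the RA-treated libraries were at 58.0% and 61.0%. At 42 h it was 34.0% (SD 12.2) against 73.7% (SD 2.82), and at 78 h 73.6% (SD 3.32) against 79.7% (SD 3.03). Between 42 h and 66 h no untreated library reached an RA-treated one, whereas at 78 h the ranges, 70.2% to 76.8% and 76.3% to 81.8%, overlapped.

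Patj, the scaffold that binds the Crumbs complex, peaked at 30 h without RA and stayed flatter with it. Untreated libraries rose from 19.4, 19.9 and 16.9 CPM at day 2 to 39.4, 31.6 and 36.4 CPM at 18 h and to 58.1, 58.5 and 55.3 CPM at 30 h. RA-treated libraries were at 34.6, 39.0 and 38.6 CPM at 18 h and at 39.9, 35.5 and 36.7 CPM at 30 h. The arms overlapped at 8 h and 18 h and were separate from 30 h to 78 h, with RA below. At 8 h the log2 fold change was 0.16 (SE 0.116, adjusted p = 0.39), and 0.20 (SE 0.10, adjusted p = 0.15) without RA 8 h replicate 3. It was -0.62 (SE 0.089, adjusted p = 0.0025) at 30 h, -0.60 (SE 0.073, adjusted p = 1.3e-06) there without RA 30 h replicate 2, and -0.51 (SE 0.084, adjusted p = 0.00049) at 42 h. At 54, 66 and 78 h it was -0.34, -0.28 and -0.12, with adjusted p-values of 0.013, 0.035 and 0.13.

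**Figure D3:**
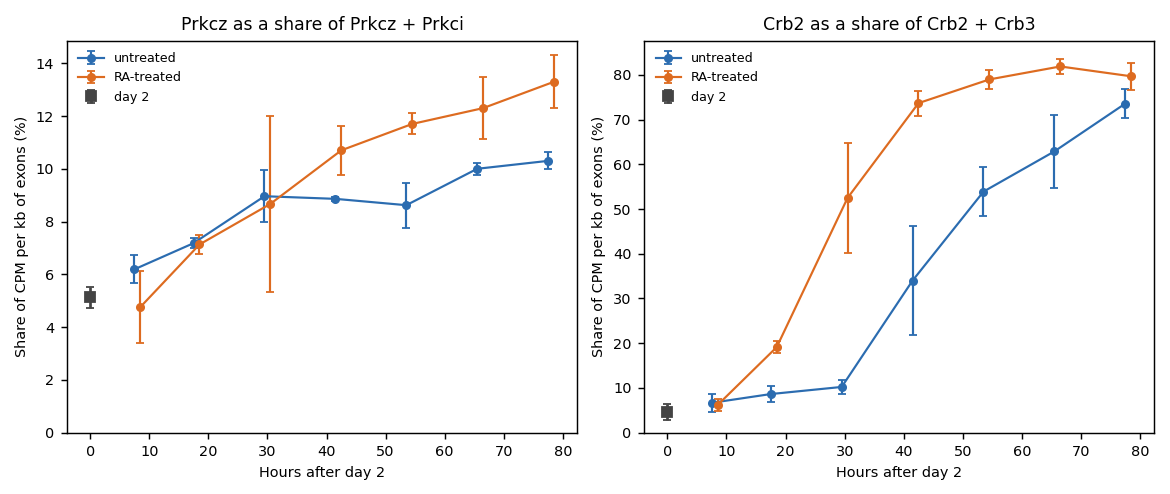
Share of Prkcz in the sum of Prkcz and Prkci (left) and of Crb2 in the sum of Crb2 and Crb3 (right), in percent of CPM per kilobase of exon (y axes), by hours after day 2 (x axes); points are means of 3 libraries, bars are SDs, blue is untreated, orange RA-treated and grey day 2. The Crb2 share at 30 h was 52.5% with RA and 10.2% without, and the Prkcz share at 78 h was 13.3% with RA and 10.3% without.

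Of the kinases of the Par complex, Prkci fell with time in both arms, whereas Prkcz rose from day 2 to 78 h in RA-treated organoids and did not pass in untreated ones. Prkci, the main atypical kinase here, declined from 305, 316 and 273 CPM at day 2 to 145, 160 and 159 CPM at 78 h without RA and 162, 159 and 153 CPM with it. Under RA it was higher at first. At 8 h the untreated libraries were at 253, 260 and 252 CPM and the RA-treated ones at 332, 322 and 409 CPM, all above every day 2 library (log2 fold change 0.48, SE 0.109, adjusted p = 0.033). Without RA 8 h replicate 3, the highest, it was 0.35 (SE 0.062, adjusted p = 0.00045). At 18 h they were at 234, 218 and 225 CPM against 289, 295 and 280 CPM (0.36, SE 0.048, adjusted p = 3.7e-05). At 30 h RA replicates 1 and 3 were both at 280 CPM and replicate 2 at 186 CPM, within the untreated 176 to 196 CPM (0.42, SE 0.153, adjusted p = 0.079). Without replicate 2 it was 0.57 (SE 0.063, adjusted p = 3.9e-07). The difference was 0.24 (SE 0.050, adjusted p = 0.0022) at 42 h and 0.05 (SE 0.050, adjusted p = 0.47) at 78 h. The RA effect at 78 h was lower than that at 18 h by -0.34 (SE 0.068, adjusted p = 8e-04).

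Prkcz, the second atypical kinase, was higher with RA at 18 h and from 42 h to 78 h. At day 2 it was at 18.2, 18.3 and 18.3 CPM, and untreated libraries stayed between 16.7 and 22.1 CPM at all 7 times. At 18 h the RA-treated libraries were at 25.2, 24.4 and 25.8 CPM against 20, 19.2 and 20.4 CPM (log2 fold change 0.35, SE 0.063, adjusted p = 0.00043). At 54 h they were at 27.3, 27 and 28.6 CPM against 16.7, 17.3 and 19.3 CPM (0.62, SE 0.078, adjusted p = 7.1e-05), the largest difference of this gene. At 78 h the difference was 0.46 (SE 0.071, adjusted p = 0.00028). The groups overlapped at 8 h and 30 h, where it was 0.04 (SE 0.144, adjusted p = 0.87) and 0.30 (SE 0.156, adjusted p = 0.19). Without RA 8 h replicate 3 the former was 0.17 (SE 0.093, adjusted p = 0.18), and without RA 30 h replicate 2 the latter was 0.14 (SE 0.096, adjusted p = 0.23).

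Per kilobase of exon Prkcz was the minor kinase in every condition, but its share of the 2 kinases grew. It was 5.12% (SD 0.384) at day 2, 7.18% (SD 0.185) and 7.13% (SD 0.361) at 18 h without and with RA, and 10.3% (SD 0.324) and 13.3% (SD 1.01) at 78 h. At 18 h the arms overlapped although both kinases were higher with RA. At 78 h the RA-treated libraries, at 12.6% to 14.5%, lay above the untreated ones, at 9.96% to 10.6%. At that time Prkcz passed an adjusted p of 0.01 between the arms and Prkci did not.

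The Par scaffolds changed little with RA. Pard3 passed an adjusted p of 0.01 at no time, with log2 fold changes between -0.28 (SE 0.182, at 30 h) and 0.21 (SE 0.139, at 8 h). The 8 h value was 0.03 (SE 0.070, adjusted p = 0.79) without RA 8 h replicate 3. It rose with time in both arms, from 83.1, 76.0 and 73.7 CPM at day 2 to 115, 133 and 145 CPM without RA and 127, 134 and 142 CPM with RA at 78 h. Its highest values were at 30 h, at 180, 182 and 170 CPM without RA and 174 and 165 CPM in RA replicates 1 and 3, while RA replicate 2 was at 101 CPM. All 5 of these higher libraries have few Y-chromosome counts. Without RA 30 h replicate 2 the difference was -0.09 (SE 0.064, adjusted p = 0.24).

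Pard6b, the adaptor that joins Pard3 and the kinase, differed little between the arms. The RA-treated libraries lay above the untreated ones at 6 of the 7 times, but the difference passed an adjusted p of 0.01 only at 54 h, at 44.2, 49.8 and 50.6 CPM against 37.0, 39.6 and 35.1 CPM (log2 fold change 0.36, SE 0.073, adjusted p = 0.0019). At the other times it was between 0.02 at 30 h and 0.26 at 8 h. Without RA 8 h replicate 3 the 8 h value was 0.17 (SE 0.080, adjusted p = 0.12), and without RA 30 h replicate 2 the 30 h value was 0.003 (SE 0.073, adjusted p = 0.98).

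The change from day 2 was followed in each arm, and both arms share the 3 day 2 libraries. By 78 h, 2 members were called up in untreated organoids, Crb2 (log2 fold change 5.02, SE 0.123, adjusted p = 4.7e-15) and Prom1 (1.24, SE 0.064, adjusted p = 2.8e-11), and 0 down, against 20.3% and 13.6% of all tested genes. In RA-treated organoids 2 were called up, again Crb2 (5.68, SE 0.152, adjusted p = 1.5e-11) and Prom1 (1.13, SE 0.064, adjusted p = 6.3e-09), and 0 down, against 22.9% and 14.5%. At an adjusted p under 0.01 with no minimum fold, 8 of 10 members changed without RA and 10 of 10 with RA, against 69.5% and 69.9% of all tested genes. At an adjusted p under 0.05, 5 rose and 3 fell without RA, against 40% and 37.2%, and 6 rose and 4 fell with RA, against 40.8% and 37.3%. Prkci fell in both arms, by -0.95 without RA and -0.92 with it, and Crb3 by -0.88 and -0.71. Pard3 rose by 0.75 and 0.79 and Patj by 0.75 and 0.61. Ezr was at -0.33 (SE 0.063) without RA and -0.80 (SE 0.051) with RA. The 2 members that did not pass in untreated organoids were Podxl, at -0.06 (SE 0.062, adjusted p = 0.39), and Prkcz, at 0.15 (SE 0.076, adjusted p = 0.081). All 6 libraries at 78 h belong to the later of 2 ranges of library numbers, and so does 1 day 2 library, so that time and library range cannot be fully told apart in these comparisons. RA 30 h replicates 2 and 3 also belong to the later range, while RA 30 h replicate 1 and the untreated 30 h libraries belong to the earlier one. Arm and library range are therefore partly tied in the RA comparison at 30 h.

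The paths to 78 h differed. At 18 h Podxl was at -1.95 (SE 0.063, adjusted p = 1.1e-13) against day 2 with RA and at 0.21 (SE 0.063, adjusted p = 0.017) without. At the same time Prom1 had risen by 1.03 (SE 0.054, adjusted p = 1.2e-08) without RA and by 0.33 (SE 0.059, adjusted p = 9.6e-05) with it. At 30 h 4 members were called up from day 2 without RA (Pard3, Crb2, Patj and Prom1), against 11.9% of all tested genes. The condition with the highest mean was untreated 30 h for Pard3, Crb3, Ezr, Patj and Prom1. The share of all genes with their highest mean there was not computed. For Pard3, Crb3 and Ezr its libraries overlapped those of the next condition. The untreated 30 h libraries are among those with few Y-chromosome counts, and the part of that difference in the 30 h maximum was not tested. When the 15 condition means of a gene were put in order, most neighbours overlapped in their libraries. Of the 14 pairs of neighbouring conditions, 7 were separate for Crb2, 4 each for Prkci and Prom1, 3 for Podxl, 2 each for Pard6b and Patj, 1 each for Pard3, Prkcz and Ezr and 0 for Crb3.

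Whether the RA effect itself changed with time was tested as an interaction over all 42 treated and untreated libraries. It did so for 4 members at an adjusted p under 0.01, Podxl (adjusted p = 5.5e-06), Crb2 (7.4e-07), Patj (0.00031) and Prom1 (1.7e-07), against 33.2% of all tested genes. Without RA 30 h replicate 2 it did so for 7 members, with Prkci, Prkcz and Crb3 in addition, against 41.4% of genes, and without 8 h and 30 h for 4 members, against 33.8%. Between 18 h and 78 h the effect differed for 3 members, Podxl, Prkci and Prom1, against 27.9% of all genes. For Crb2 this difference was -0.48 (SE 0.172, adjusted p = 0.035). The members whose RA effect differed between these times were all smaller in effect at 78 h than at 18 h.

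Other genes of the polarity machinery were taken from 8 lists with 42 genes in total. At 18 h 41 of them were tested, 5 were called up and 1 down, against 8.17% and 2.76% of all genes, with a median log2 fold change of 0.12 beside 0.02 for all genes. At 78 h all 42 were tested, 3 were called up and 2 down, against 7.66% and 4.03%, with a median of 0.06 beside 0.00 for all genes.

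**Figure D4:**
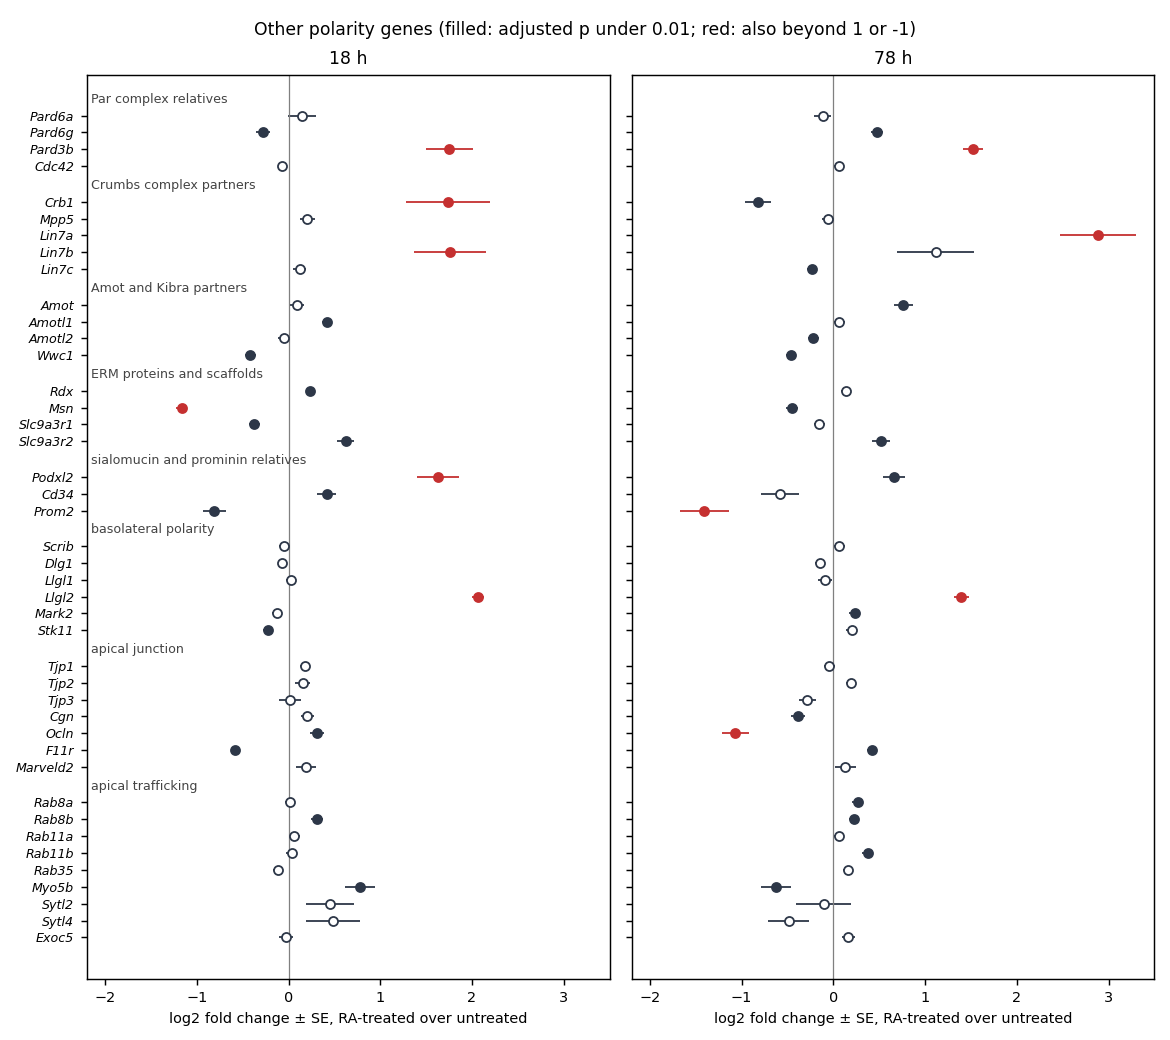
log2 fold change of RA-treated over untreated organoids (x axes, bars are SEs) for the 42 genes of 8 polarity lists (rows, list names in the left panel) at 18 h and 78 h; filled points have an adjusted p under 0.01 and red points also a change past 1 or -1. At 18 h Llgl2, at 2.07, and Msn, at -1.17, mark the extremes, and at 78 h Lin7a, at 2.89, and Prom2, at -1.41.

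Among the 4 relatives of the Par complex 1 was called up at both times, Pard3b, a Pard3 paralogue, at 0.700 CPM (SD 0.221, n = 3) without RA and 2.41 CPM (SD 0.338) with RA at 18 h (log2 fold change 1.75, SE 0.260, adjusted p = 9.7e-05) and at 10.6 CPM (SD 0.656) and 30.1 CPM (SD 4.69) at 78 h (1.52, SE 0.111, adjusted p = 9.1e-07). Of the 5 Crumbs complex genes, 4 were tested at 18 h and 2 were called up, Crb1, the third Crumbs protein, and Lin7b, an adaptor that binds Pals1, both at or below 1.44 CPM in every library of that time. At 78 h Lin7a was called up (2.89, SE 0.412, adjusted p = 0.00017) at a mean of 0.929 CPM with RA and 0.126 CPM without, and Crb1 was at -0.82 (SE 0.142, adjusted p = 0.00069), the other sign than at 18 h, a difference that was not tested. The core partner Mpp5 (Pals1) was at 0.21 (adjusted p = 0.041) at 18 h and -0.06 (adjusted p = 0.45) at 78 h.

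Of the 4 ERM proteins and scaffolds, moesin (Msn), the close relative of ezrin, was called down at 18 h, at 289 CPM (SD 22.0) without RA and 128 CPM (SD 7.30) with RA (-1.17, SE 0.060, adjusted p = 6.3e-09), and was at -0.45 (SE 0.062, adjusted p = 0.00013) at 78 h. Radixin (Rdx) was at 0.24 (SE 0.048, adjusted p = 0.0011) at 18 h, and the scaffolds Slc9a3r1 and Slc9a3r2, which link podocalyxin to ezrin, were at -0.38 (adjusted p = 0.00016) and 0.62 (adjusted p = 1e-04). Of the 3 relatives of podocalyxin and prominin, Podxl2 (endoglycan) was called up at 18 h, at 1.11 CPM (SD 0.298) without RA and 3.34 CPM (SD 0.388) with it (1.63, SE 0.226, adjusted p = 5.7e-05), when Podxl itself was lower. Prom2 was at -0.81 (SE 0.126, adjusted p = 0.00014) at 18 h and was called down at 78 h (-1.41, SE 0.270, adjusted p = 0.0013).

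Of the 6 basolateral polarity genes, Llgl2, whose protein opposes the atypical kinases, was called up at both times. It was at 58.4 CPM (SD 3.65) without RA and 243 CPM (SD 18.7) with RA at 18 h (2.07, SE 0.064, adjusted p = 4.8e-11) and at 29.5 CPM (SD 2.79) and 76.6 CPM (SD 4.54) at 78 h (1.39, SE 0.081, adjusted p = 1.6e-07). Its paralogue Llgl1 was at 0.02 (SE 0.052) and -0.09 (SE 0.077), and Scrib and Dlg1 passed the test at neither time. Of the 7 apical junction genes, occludin (Ocln) was called down at 78 h (-1.07, SE 0.149, adjusted p = 0.00015) and was at 0.31 (adjusted p = 0.0051) at 18 h. None of the 9 apical trafficking genes and of the 4 Amot and Kibra genes passed the minimum fold at 18 h or 78 h.

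Crb2 was the only member called at 3 or more times, and the genes whose 15 condition means followed it most closely were looked up among 14314 genes with a mean of at least 1 CPM. They were Antxr2, an anthrax toxin receptor that binds matrix proteins (Pearson r of 0.995), Boc, a coreceptor for Sonic hedgehog (0.995), and the tetraspanin Tspan3 (0.994). The 15 means share their libraries and the order of time. Among the members, the closest pair over the same 15 means was Pard3 and Pard6b (0.838), followed by Crb3 and Ezr (0.788), and the most opposed were Prkcz and Ezr (-0.874) and Prkci and Prom1 (-0.860).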

How the data were processed

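RNA of 45 organoid libraries was sequenced from directional poly(A) libraries. Per the labels and the methods, the authors trimmed reads with Trim Galore 0.5.0, removed abundant sequences with Bowtie2 2.3.4.1, aligned the rest to GRCm38 with STAR, counted them per gene with featureCounts (Subread 1.6.2) and deposited these raw counts for each replicate, unnormalized. The strand setting and the handling of reads that match several places are not given in the sources used here.

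Counts were analysed with edgeR 4.0.16 in R 4.3.3: TMM scaling, filterByExpr (minimum count 10, minimum total 15), glmQLFit and glmQLFTest on the 6 libraries of each comparison, and Benjamini-Hochberg adjustment over all tested genes. A call needed an adjusted p below 0.01 together with a change beyond 1 or -1 on the log2 scale. The standard error is the log2 fold change divided by the square root of F. Interactions were fitted over 42 libraries (7 times) or 12 (18 h and 78 h). CPM was scaled by TMM over all 45 libraries and divided by merged exon length (GENCODE M21) to compare genes. The scripts were tested on simulated data. Library depth put the scarcest member at 30 counts or more.

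Groups came from the sample titles. Equal replicate numbers were checked for pairing: the correlation of deviations from the group means exceeded 0.1 in 9 of 21 pairs, so that the numbers were not taken as pairs. Replicates differed by more than sampling noise in all 45 replicate pairs (lowest mean chi-square of a pair 1.97). The members and gene lists were chosen with earlier results of these data known. Named genes were the members, list genes called at 18 h or 78 h (at most 4 of a list, those of largest change), and the 3 genes most correlated with each member called at 3 or more times, by log2(CPM + 1). List genes without a call are named to complete a complex and were chosen after their values were seen. Alternatives were DESeq2 1.42.0, scaling by library totals or RLE size factors, one fit of all 45 libraries, other filters and thresholds, the replicate block, one range of library numbers only, and each library left out.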

Additional observations from a re-analysis of the deposited data

Results flagged for a closer look

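The RA effect differed over the 7 times for 4 of the 10 members, against 33.2% of all tested genes, and between 18 h and 78 h for 3 of them, against 27.9%, by tests of the difference itself. Both member counts lie near those shares. Over the 7 times the F statistic of the interaction was 11.6 for Podxl, 14.2 for Crb2, 7.10 for Patj and 16.4 for Prom1. Between 18 h and 78 h the log2 RA effect changed by 1.88 for Podxl and by 0.55 for Prom1, both toward 0 from below, and by -0.34 for Prkci, toward 0 from above. When 8 h and 30 h, the times with libraries of unlike Y-chromosome counts, were left out together, an alternative added after the data were seen, the interaction passed for 4 members, Podxl, Prkci, Crb2 and Prom1, and no longer for Patj, against 33.8% of genes.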

How the results depend on the processing

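The counts of calls were recomputed under the alternatives and with each library left out. The downward RA calls over the 7 times, 2 as reported, were 4 with no filter on low counts, 4 with DESeq2, 4 with one fit of all 45 libraries and 5 with RA 8 h replicate 3 and RA 30 h replicate 2 left out together (added after the data were seen), and the cause was not tested. At an adjusted p under 0.05 with no minimum fold, a looser rule, 16 pairs rose and 25 fell with RA (22.2% and 19.6% of all tested pairs), 5 members rose and 3 fell from day 2 to 78 h without RA (40% and 37.2% of genes), and 6 rose and 4 fell with RA (40.8% and 37.3%). Over the libraries left out singly, downward RA calls ranged from 1 to 4, downward calls from day 2 without RA from 0 to 1 (1 without day 2 replicate 3), and members with an RA effect that differed over the 7 times from 4 to 7. With the replicate block, the downward RA calls numbered 3, with Podxl called at 30 h (-1.61, adjusted p = 0.0043). The sample titles do not state whether equal replicate numbers pair the samples.

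Directions turned only for small differences that passed no test: Crb3 at 8 h was 0.0271 with library totals and Pard6b at 30 h -0.00212 with DESeq2. With single libraries left out, the log2 fold change ran from -0.162 to 0.148 for Crb3 at 8 h, -0.0737 to 0.169 for Prkcz at 8 h, -0.353 to 0.0911 for Crb2 at 8 h, -0.00247 to 0.136 for Patj at 18 h, -0.0471 to 0.0431 for Pard6b at 30 h, -0.014 to 0.096 for Pard3 at 42 h, -0.192 to 0.00158 for Crb3 at 54 h and -0.0329 to 0.11 for Pard3 at 78 h. Library totals shifted the median of all genes to 0.14 at 18 h and 0.18 at 30 h. With the later range of library numbers only, the change of Crb2 from day 2 to 78 h was 5.53 without RA and 6.20 with it, and that of Podxl 0.06 and -0.19. The earlier range at 30 h leaves RA replicate 1 alone against the untreated libraries. With it the RA effect moved by more than the SD of the RA-treated libraries for Patj, to -0.522, and for Pard6b, to 0.0527. For the other members it did not.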

Other observations

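At 30 h the RA-treated libraries differed among themselves in several members along with the Y-chromosome genes, whose mean was 1.22 CPM in replicate 1, 29.1 CPM in replicate 2 and 2.05 CPM in replicate 3. Prkci was at 280, 186 and 280 CPM in this order and Pard3 at 174, 101 and 165 CPM. Podxl was at 33.2, 71.4 and 31.2 CPM, Prom1 at 56.7, 88.2 and 60.6 CPM, Crb3 at 4.57, 14 and 3.49 CPM and Crb2 at 27, 37.3 and 23.4 CPM. In RA 8 h replicate 3, with a Y-chromosome mean of 3.65 CPM against 78.6 and 89.5 CPM in replicates 1 and 2, Prkci was at 409 CPM against 332 and 322 CPM and Pard3 at 117 CPM against 89.2 and 83.8 CPM. Podxl was there at 11.4 CPM against 59.0 and 50.7 CPM, Prom1 at 36.0 CPM against 47.3 and 51.8 CPM, Crb3 at 6.52 CPM against 10.6 and 9.34 CPM and Crb2 at 1.66 CPM against 2.52 and 3.31 CPM. Ezr was at 253, 270 and 233 CPM at 30 h and at 281 CPM in RA 8 h replicate 3 against 329 and 304 CPM, and Prkcz at 22.0, 30.2 and 24.2 CPM and at 15.7 CPM against 20.5 and 22.9 CPM. The members named so far in this paragraph lay on the same side in the RA-treated libraries with few Y-chromosome counts at both times. The share of all genes that do so was not computed, so that this is not a result about these members. Patj was above at 30 h (39.9 and 36.7 against 35.5 CPM) and below at 8 h (25.5 against 30.0 and 26.1 CPM), and Pard6b was above at 8 h (40.1 against 34.6 and 34.2 CPM) and on both sides at 30 h (45.9 and 44.3 against 44.7 CPM). No test was made, since this split of the libraries was seen in the data.

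Podxl relative to Ezr, per kilobase of exon, fell from 28.0% (SD 0.474, n = 3) of their sum at day 2 to 11.9% (SD 0.261) with RA at 18 h, against 30.8% (SD 0.550) without. At 66 h and 78 h the order was the other way, at 31.8% (SD 0.629) and 35.4% (SD 1.11) with RA and 28.6% (SD 0.378) and 31.9% (SD 0.326) without, and the libraries of the arms did not overlap at either time.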
